A study of Schizosaccharomyces pombe 972h- with 8 samples.

Results

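Among the 4854 genes of the deposited expression tables, 63 carried a name of a proteasome subunit, of a ubiquitin-activating, ubiquitin-conjugating or deubiquitinating enzyme, of a Ufd protein or of Cdc48. The rule used names alone (rpn, rpt, mts, pad1, pre, pup, uba, ubc, ubp, uch, ufd and cdc48) and no measured value. It was chosen with earlier results of these data known. All 63 genes were measured. The annotated products placed 60 of them in 4 groups, namely 23 proteasome subunits, 17 activating and conjugating enzymes, 17 deubiquitinating enzymes and 3 Cdc48 and Ufd proteins. The other 3 matched through an older name or had another product and were kept apart: atf1 (also mts1) and pcr1 (also mts2) encode stress transcription factors, and ubp13 encodes the Pan2 subunit of a poly(A) nuclease. The duplicated lid subunit genes rpn501 and rpn502 were not analysed here.

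The cells were Schizosaccharomyces pombe wild type, strain 972 h-, grown in rich YE medium, and carried no other allele. One group had received 0.5 mM H2O2 for 30 min and the control group was sampled from the same cultures before H2O2 was added, so time in culture and treatment cannot be told apart. Each group held 2 cultures started from separate colonies, and RNA of each sample was read on 2 Affymetrix platforms, the whole-genome tiling array (Sp_TMA) and the expression array (Sp_EMA). The labelled response was checked on 4 known H2O2-induced genes: log2 changes on Sp_TMA and Sp_EMA were 3.46 and 2.29 for srx1 (sulfiredoxin), 3.19 and 2.99 for ctt1 (catalase), 4.27 and 5.02 for pyp2 (a phosphatase of the stress kinase Sty1), and 2.20 and 1.84 for gst3 (a glutathione transferase). The 4 arrays of each platform had similar medians, with a range of 0.02 on the log2 scale on Sp_TMA and 0.04 on Sp_EMA, and the number of arrays limited the precision. Throughout, a change is the mean log2 value in H2O2 minus that in control, given with its standard error (SE) from limma, a linear model across all 4854 genes, and a gene was called at a Benjamini-Hochberg adjusted p below 0.05 over all of them. Levels were not compared between genes, since probes differ, and what is measured is RNA, not protein or proteasome activity.

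The ubiquitin-proteasome system marks proteins with ubiquitin and destroys them. An activating enzyme (E1) charges ubiquitin, a conjugating enzyme (E2) carries it, and a ligase (E3) places it on a substrate, while deubiquitinating enzymes take it off again. The marked protein is bound by the regulatory particle of the 26S proteasome, whose lid and base hold ubiquitin receptors, a deubiquitinase and a ring of ATPases that unfold the substrate and thread it into the barrel-shaped core particle. Cdc48 is an ATPase that pulls marked proteins out of complexes and membranes. In yeasts exposed to oxidants this system removes oxidised and misfolded proteins.

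In the 250 bases before the annotated gene start, a few members carried short motifs bound by stress factors, at shares near those of all promoters. The CRE motif TGACGT, bound by Atf1 and Pcr1, was present on either strand before rpn12, ubc13 and ubp15, which is 3 of 60 members, and before 5.52% of all 4841 promoters. A pair of heat shock units in the form TTCNNGAA lay before pre8, ufd1 and ufd2, among others, against 8.43% of all promoters. The Pap1-type motif TTACGTAA (0.475% of all promoters) and the proteasome motif GGTGGCAAA known from budding yeast (0.062%) matched before none of the 60. A match is a description of letters, not of a bound site. The windows around the matches are shown for rpn12, ubc13, ubp15, ufd1 and ufd2, since these genes rose on Sp_TMA and their arrays are given in full, with the motif in capitals and the sequence 5′ to 3′ on the gene's strand (RefSeq, ASM294v3). They lie at chrII:4214825-4214890 on the plus strand (rpn12), chrI:5288153-5288218 on the minus strand (ubc13), chrII:870282-870347 on the minus strand (ubp15), chrII:4281832-4281899 on the plus strand (ufd1) and chrI:2128191-2128331 on the plus strand (ufd2). Both strands were searched: ACGTCA is TGACGT read on the other strand, while TTCNNGAA and TTACGTAA read alike on both. The matches begin 122 bases before the gene start in rpn12, 94 in ubc13, 64 in ubp15, 170 in ufd1, and 247 and 147 in ufd2.
rpn12: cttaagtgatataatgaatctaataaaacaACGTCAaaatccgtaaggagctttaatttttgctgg
ubc13: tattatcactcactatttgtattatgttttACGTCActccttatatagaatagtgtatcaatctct
ubp15: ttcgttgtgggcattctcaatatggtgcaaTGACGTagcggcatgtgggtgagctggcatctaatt
ufd1: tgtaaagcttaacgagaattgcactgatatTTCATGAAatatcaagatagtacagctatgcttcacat
ufd2: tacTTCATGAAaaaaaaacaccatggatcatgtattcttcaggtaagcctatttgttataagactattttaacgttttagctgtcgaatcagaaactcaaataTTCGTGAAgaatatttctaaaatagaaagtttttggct

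The 23 proteasome subunits taken by name were modestly higher after H2O2, by up to 0.65 on the log2 scale, and none of the 23 was called lower. On Sp_TMA 17 of 23 subunits were called higher, where 25.2% of all genes were called higher and 31.3% lower. On Sp_EMA 8 of 23 were called higher, where 22.7% of all genes were called higher and 36.2% lower. The median change of the 23 was 0.33 on Sp_TMA and 0.11 on Sp_EMA, beside medians over all genes of -0.05 and -0.07. Both H2O2 arrays lay above both control arrays for 23 of 23 subunits on Sp_TMA, as they did for 35.5% of all genes, and for 17 of 23 on Sp_EMA, as for 31.4% of all genes. The count on each platform fell on leaving out any 1 array, which leaves 1 array in a group. The count of all genes called higher fell as well in each of these fits. On Sp_TMA the median change of the 23 was 0.285 without control 1, 0.399 without control 2, 0.294 without H2O2 1 and 0.397 without H2O2 2. The medians over all genes were then -0.0637, -0.0362, -0.0645 and -0.0342. On Sp_EMA, in the same order, the median of the 23 was 0.0988, 0.137, 0.106 and 0.122. Over all genes it was -0.0841, -0.0586, -0.0759 and -0.0659. Only rpt6, rpn6, rpn11 and pre3 kept the call on Sp_TMA under every alternative at the same threshold, which is 4 of 23 where 16.7% of all genes did, and on Sp_EMA rpt6 and rpn11 did, where 15.1% of all genes did.

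**Figure D1:**
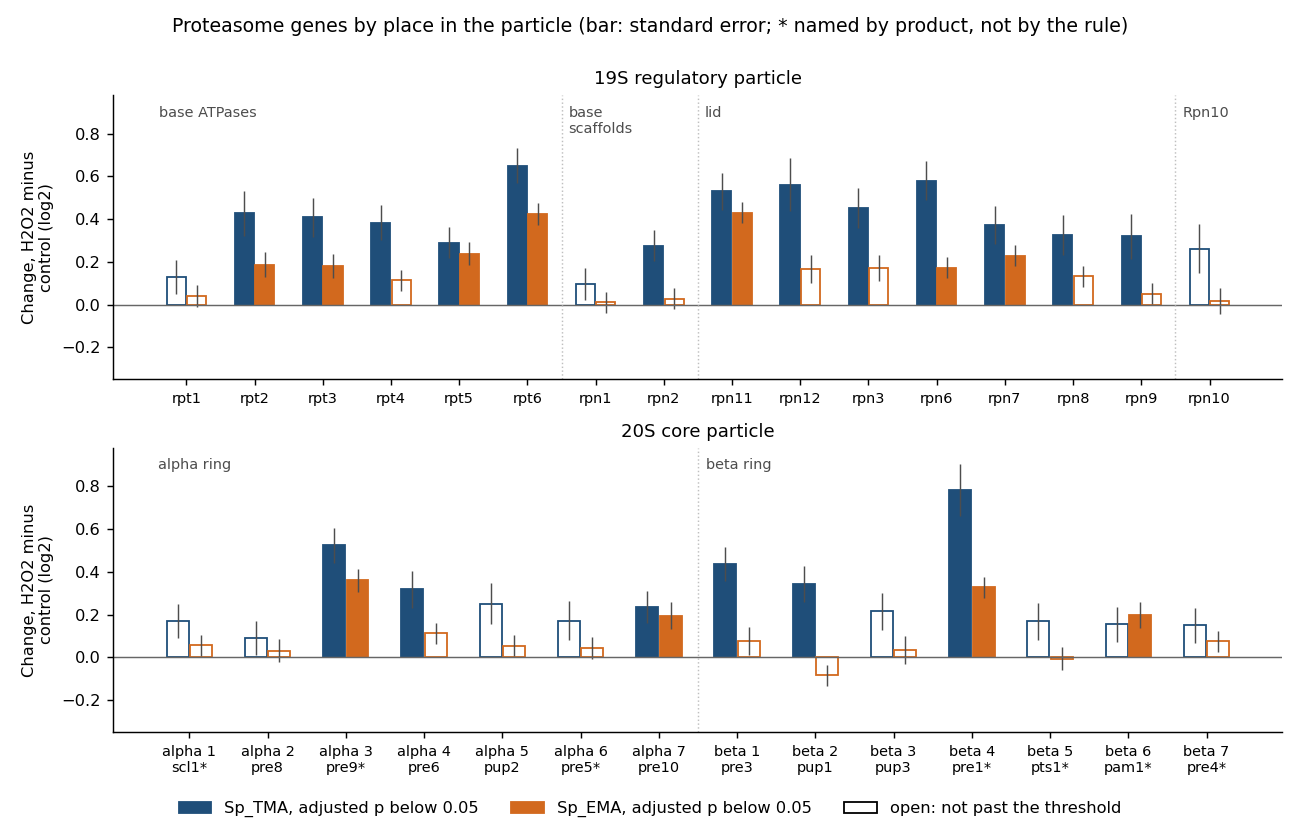
Change (H2O2 minus control, log2) on Sp_TMA and Sp_EMA of the proteasome subunit genes taken by name and the core genes found by product (asterisk), ordered by subcomplex. Bars show the change, lines the SE (n = 2 arrays a group) and filled bars the genes called by limma. The regulatory particle genes found by product, with rpn1301 and rpn1302 among them, are not shown. The regulatory particle ATPases and lid subunits reach 0.65 (rpt6) and 0.58 (rpn6) on Sp_TMA, while rpt1, rpn1 and pre8 lie near 0 on both platforms.

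The 6 ATPases of the base, which form the unfolding ring, had median changes of 0.40 on Sp_TMA and 0.18 on Sp_EMA. Of these 5 and 4 were called higher, where 25.2% and 22.7% of all genes were. The largest Sp_TMA change among the 23 subunits was that of rpt6 (chromosome II, 2121444 to 2122816, minus strand), with 13.01 and 12.88 in H2O2 against 12.27 and 12.32 in control on Sp_TMA. Its Sp_EMA values were 13.84 and 13.77 in H2O2 against 13.37 and 13.38 in control. The arrays of the groups did not overlap on either platform, and rpt6 rose by 0.65 ± 0.08 (SE, n = 2, 1.57-fold, adjusted p = 0.00102) on Sp_TMA and by 0.42 ± 0.05 (adjusted p = 0.00179) on Sp_EMA. The ATPase genes rpt2, rpt3 and rpt5 also rose on both, by 0.43, 0.41 and 0.29 on Sp_TMA and 0.19, 0.18 and 0.24 on Sp_EMA, whereas rpt4 rose by 0.38 on Sp_TMA and had a change of 0.11 on Sp_EMA that was not called. The ATPase gene rpt1 had 12.31 and 12.22 in H2O2 against 12.09 and 12.17 in control on Sp_TMA, a change of 0.13 ± 0.08 (adjusted p = 0.216). On Sp_EMA it had 13.62 and 13.68 in H2O2 against 13.61 and 13.62 in control, a change of 0.04 (adjusted p = 0.556). The H2O2 arrays of rpt1 lay above its control arrays on Sp_TMA by less than the test required.

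The 7 measured lid subunits, which carry the proteasome's own deubiquitinase and its scaffold, had median changes of 0.45 on Sp_TMA and 0.17 on Sp_EMA. Of these 7 and 3 were called higher, where 25.2% and 22.7% of all genes were. The lid scaffold gene rpn6 had 11.32 and 11.16 in H2O2 against 10.60 and 10.71 in control on Sp_TMA, and 13.46 and 13.51 in H2O2 against 13.31 and 13.31 in control on Sp_EMA. It rose by 0.58 ± 0.09 (adjusted p = 0.00236) and by 0.17 ± 0.05 (adjusted p = 0.0318). The values of rpn12, whose upstream CRE match is printed above, were 11.70 and 11.45 in H2O2 against 10.89 and 11.14 in control on Sp_TMA. On Sp_EMA they were 13.06 and 12.95 in H2O2 against 12.79 and 12.89 in control. No array overlapped between groups for either gene, but in rpn12 the cultures stood 0.25 apart on Sp_TMA in each group, in opposite directions. The Sp_TMA change of rpn12 was thus 0.81 in culture 1 and 0.31 in culture 2. On Sp_TMA alone rpn12 was called higher (0.56 ± 0.12, adjusted p = 0.00929), with a change of 0.17 ± 0.07 (adjusted p = 0.0851) on Sp_EMA. The gene rpn11 (also pad1), encoding the lid's metalloprotease that cuts ubiquitin chains from substrates, had 13.25 and 13.24 in H2O2 against 12.63 and 12.80 in control on Sp_TMA, and 13.04 and 13.08 in H2O2 against 12.62 and 12.63 in control on Sp_EMA. It rose by 0.53 ± 0.09 (adjusted p = 0.00271) there and by 0.43 ± 0.05 (adjusted p = 0.00140) on Sp_EMA. The remaining lid genes rpn3, rpn7, rpn8 and rpn9 rose by 0.45, 0.37, 0.33 and 0.32 on Sp_TMA, and of these rpn7 was called on Sp_EMA (0.23).

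The large base scaffolds, which hold ubiquitin receptors and shuttle proteins, changed less. The gene rpn1 had 12.48 and 12.50 in H2O2 against 12.41 and 12.37 in control on Sp_TMA, a change of 0.10 ± 0.07 (adjusted p = 0.302), and 13.46 and 13.49 in H2O2 against 13.48 and 13.45 in control on Sp_EMA, a change of 0.01 (adjusted p = 0.878). Its groups did not overlap on Sp_TMA and did on Sp_EMA. The partner scaffold gene rpn2 rose by 0.28 on Sp_TMA and had a change of 0.03 on Sp_EMA, and the ubiquitin receptor gene rpn10, with 0.26 and 0.02, was called on neither.

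The core particle, a stack of alpha and beta rings with the proteolytic sites inside, had 7 members with median changes of 0.25 on Sp_TMA and 0.06 on Sp_EMA. On Sp_TMA 4 of the 7 were called higher, where 25.2% of all genes were. On Sp_EMA 1 of the 7 was, a share below the 22.7% of all genes. The catalytic beta subunit genes pre3 and pup1 rose by 0.44 and 0.34 on Sp_TMA, with changes of 0.08 and -0.08 on Sp_EMA that were not called. The alpha subunit genes pre6 and pre10 rose by 0.32 and 0.24 on Sp_TMA, and pre10 also on Sp_EMA (0.20). The alpha subunit gene pup2 and the beta subunit gene pup3 had changes of 0.25 and 0.21 on Sp_TMA and 0.06 and 0.03 on Sp_EMA, and were called on neither. The alpha subunit gene pre8, with 12.49 and 12.40 in H2O2 against 12.32 and 12.39 in control on Sp_TMA, had a change of 0.09 ± 0.08 (adjusted p = 0.369). On Sp_EMA pre8 had 12.81 and 12.83 in H2O2 against 12.83 and 12.75 in control (0.03, adjusted p = 0.650). Over 921 bases pre8 overlaps the opposite-strand gene wss2, annotated as a ubiquitin and metalloprotease fusion protein, which had called changes of 2.34 and 2.32, and its part in the values of pre8 was not tested.

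A further 10 proteasome genes carry names outside the rule and were found by their annotated product after the values had been seen. Of these, 2 were called higher on Sp_TMA, where 25.2% of all genes were. On Sp_EMA 5 were called higher and 1 lower, where 22.7% and 36.2% of all genes were. The beta subunit gene pre1 and the alpha subunit gene pre9, listed in the tables by their systematic names, were called on both platforms: on Sp_TMA pre1 rose by 0.78 and pre9 by 0.52, and on Sp_EMA by 0.33 and 0.36. The beta subunit gene pts1, for the chymotrypsin-like site, had changes of 0.17 and -0.01, and the ubiquitin receptor genes rpn1301 and rpn1302 had -0.18 and 0.27 on Sp_TMA and, both called, -0.20 and 0.38 on Sp_EMA. Over all 14 core subunits, 6 were called higher on Sp_TMA and 4 on Sp_EMA, to be read against the same 25.2% and 22.7%.

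The spread of gene values was slightly wider on the H2O2 arrays. The lower quartile of all gene values was 9.08 and 9.11 in H2O2 against 9.16 and 9.19 in control on Sp_TMA, and 9.81 and 9.82 in H2O2 against 9.93 and 9.97 in control on Sp_EMA. The upper quartile of all gene values was 11.61 and 11.55 in H2O2 against 11.46 and 11.48 in control on Sp_TMA. It was 12.33 and 12.32 in H2O2 against 12.29 and 12.28 in control on Sp_EMA. With all arrays of a platform brought to the same distribution, the median proteasome change was 0.20 on Sp_TMA and 0.09 on Sp_EMA. Of the 23 subunits 9 and 4 were then called higher, where 24.7% and 24.6% of all genes were. The median change was 0.46 in culture 1 and 0.25 in culture 2 on Sp_TMA, and 0.14 and 0.08 on Sp_EMA.

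**Figure D2:**
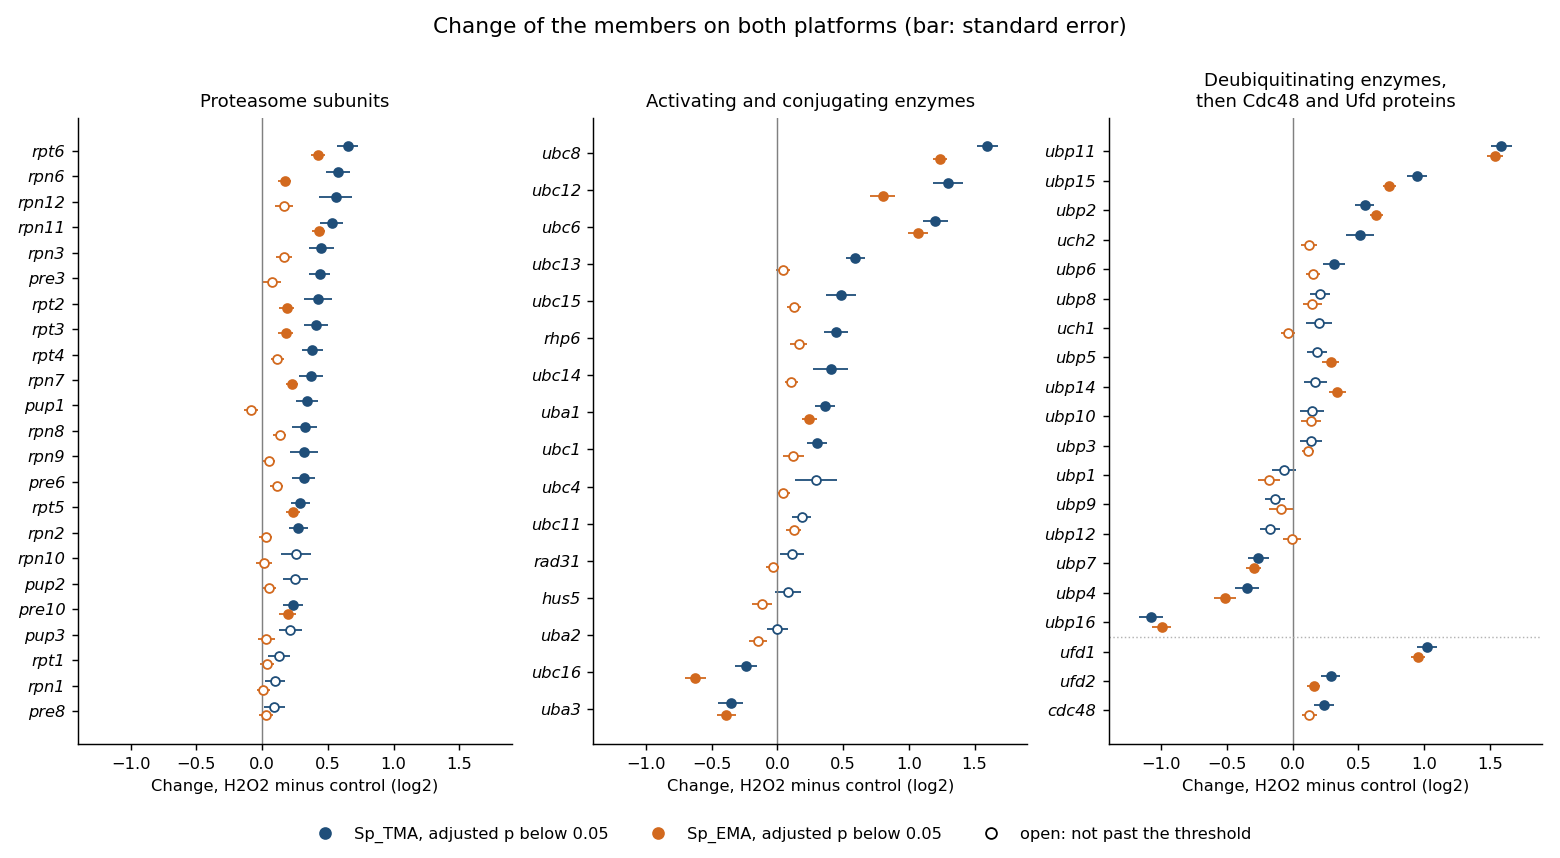
Change (H2O2 minus control, log2, horizontal axis) of the members on Sp_TMA and Sp_EMA, in panels by group with the Cdc48 and Ufd genes under the dotted line, with lines for the SE and filled points for genes called by limma. The proteasome subunits lie in a narrow band between 0.09 and 0.65 on Sp_TMA, while the conjugating and deubiquitinating enzymes reach from -1.08 (ubp16) to 1.60 (ubc8).

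The activating and conjugating enzymes spread more widely, with 3 conjugating enzymes more than 2-fold higher on Sp_TMA and a Nedd8-activating subunit lower. On Sp_TMA 10 of 17 were called higher and 2 lower, and on Sp_EMA 5 higher and 2 lower, to be read against the shares of all genes given for the proteasome. On Sp_TMA both H2O2 arrays lay above both control arrays for 12 of the 17 and below them for 2, where 35.5% of all genes lay above and 44.7% below. On Sp_EMA this held for 11 above and 3 below, where 31.4% of all genes lay above and 51.2% below. Median changes of the 17 were 0.36 on Sp_TMA and 0.12 on Sp_EMA. A log2 change of at least 1 was reached by 6.32% of all genes on Sp_TMA and 5.36% on Sp_EMA.

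The gene ubc8 (chromosome II, 3885535 to 3886935, minus strand), whose budding yeast counterpart is the E2 that marks gluconeogenic enzymes for destruction, had the highest change. On Sp_TMA it had 10.78 and 10.83 in H2O2 against 9.15 and 9.26 in control, and on Sp_EMA 12.31 and 12.27 in H2O2 against 11.01 and 11.09 in control. All H2O2 arrays stood more than 1 log2 unit above all control arrays of their platform, and ubc8 rose by 1.60 ± 0.08 (3.03-fold, adjusted p = 3.11e-05) on Sp_TMA and by 1.24 ± 0.06 (2.36-fold, adjusted p = 0.000105) on Sp_EMA. The gene ubc6 (chromosome I, 1214788 to 1215948, minus strand) encodes an E2 that in budding yeast sits in the endoplasmic reticulum membrane and serves the degradation of misfolded proteins there. It had 11.72 and 11.58 in H2O2 against 10.37 and 10.53 in control on Sp_TMA, and 11.97 and 12.01 in H2O2 against 10.82 and 11.01 in control on Sp_EMA. Its groups were likewise far apart, and it rose by 1.20 ± 0.09 (adjusted p = 0.000154) and by 1.07 ± 0.08 (adjusted p = 0.000300). Over 1161 bases ubc6 overlaps the opposite-strand gene ats1, whose changes of 0.00 and -0.13 were not called.

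Among the other 9 ubiquitin enzymes, the E1 gene uba1 rose on both platforms (0.36 and 0.24), and ubc15, rhp6, ubc14 and ubc1 rose on Sp_TMA (0.48, 0.44, 0.40 and 0.30) with changes of 0.12, 0.16, 0.11 and 0.12 on Sp_EMA that were not called. Of these, rhp6 encodes the Rad6 counterpart that ubiquitinates histone H2B. The whole annotated span of ubc1, with 654 coding bases, overlaps over 2304 bases the opposite-strand kinesin gene klp9, with called changes of 0.55 and 0.86. The genes ubc4 and ubc11, whose products serve the anaphase-promoting complex, had 0.29 and 0.18 on Sp_TMA and 0.04 and 0.12 on Sp_EMA, and neither was called. The gene ubc16 had 9.67 and 9.67 in H2O2 against 9.85 and 9.97 in control on Sp_TMA, and 10.26 and 10.13 in H2O2 against 10.74 and 10.90 in control on Sp_EMA. Its H2O2 arrays lay below the control arrays on both, and it fell by 0.24 ± 0.08 (adjusted p = 0.0451) on Sp_TMA, a call lost on leaving out any 1 array or with the replicate block (adjusted p = 0.0890), and by 0.62 ± 0.08 (adjusted p = 0.00192) on Sp_EMA. The whole annotated span of ubc16, with 483 coding bases, overlaps over 2270 bases the opposite-strand gene slm5, which rose by 0.36 and 0.30. Probes lie in coding sequence, so much of such an overlap holds none of the member's probes.

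The enzymes of the ubiquitin-like protein Nedd8, which switches on cullin ligases, moved in both directions, and the E1 and E2 genes of SUMO did not pass the test. The Nedd8 E2 gene ubc12 (chromosome III, 1614962 to 1616151, minus strand) had 10.42 and 10.55 in H2O2 against 9.04 and 9.33 in control on Sp_TMA. On Sp_EMA it had 9.42 and 9.17 in H2O2 against 8.49 and 8.51 in control. No arrays overlapped, and ubc12 rose by 1.30 ± 0.12 (adjusted p = 0.000256) and by 0.80 ± 0.09 (adjusted p = 0.00140). The gene uba3, for the catalytic subunit of the Nedd8 E1, had 9.55 and 9.61 in H2O2 against 9.84 and 10.04 in control on Sp_TMA, and 10.18 and 10.34 in H2O2 against 10.65 and 10.64 in control on Sp_EMA. It fell by 0.36 ± 0.09 (adjusted p = 0.0181) and by 0.39 ± 0.07 (adjusted p = 0.00640), with the H2O2 arrays below the control arrays. The SUMO E1 gene uba2 had 9.58 and 9.51 in H2O2 against 9.58 and 9.51 in control on Sp_TMA (adjusted p = 0.991), and 11.26 and 11.12 in H2O2 against 11.39 and 11.30 in control on Sp_EMA, a change of -0.15 (adjusted p = 0.126). Its partner rad31 and the SUMO E2 gene hus5 had changes of 0.11 and 0.08 on Sp_TMA and -0.04 and -0.12 on Sp_EMA, and neither was called. Under every alternative at the same threshold, 5 of the 17 E1 and E2 genes kept a higher call on Sp_TMA, where 16.7% of all genes did. None of the 17 kept a lower call there, where 20.4% of all genes did.

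The deubiquitinating enzymes divided into a few strongly higher genes, a few lower ones and a majority near 0. On Sp_TMA 5 of 17 were called higher and 3 lower, and on Sp_EMA 5 higher and 3 lower, so that the shares called higher lay slightly above, and the shares called lower below, those of all genes. Median changes were 0.17 on Sp_TMA and 0.12 on Sp_EMA. The calls of ubp11, ubp15, ubp2 and uch2 on Sp_TMA, and of ubp11, ubp15 and ubp2 on Sp_EMA, were kept under every alternative at the same threshold, which is 4 and 3 of 17 where 16.7% and 15.1% of all genes did. Among the lower genes ubp16 kept its call on Sp_TMA, which is 1 of 17 where 20.4% of all genes did, and ubp16 and ubp4 on Sp_EMA, which is 2 of 17 where 24.5% did.

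The ubiquitin protease gene ubp11 (chromosome II, 1676352 to 1678604, minus strand) had 10.34 and 10.39 in H2O2 against 8.83 and 8.72 in control on Sp_TMA, and 11.32 and 11.37 in H2O2 against 9.86 and 9.74 in control on Sp_EMA. The groups were separated by more than 1 log2 unit, and ubp11 rose by 1.59 ± 0.08 (3.01-fold, adjusted p = 3.18e-05) and by 1.54 ± 0.06 (adjusted p = 8.32e-05). The gene ubp15 (chromosome II, 866271 to 870253, minus strand), which belongs to the kin of the human deubiquitinase USP7 and carries the CRE match printed above, had 12.44 and 12.50 in H2O2 against 11.51 and 11.54 in control on Sp_TMA. On Sp_EMA it had 12.91 and 12.89 in H2O2 against 12.17 and 12.17 in control. It rose by 0.95 ± 0.08 (adjusted p = 0.000162) and by 0.73 ± 0.05 (adjusted p = 0.000233), while its paralogue ubp5 had 0.18 on Sp_TMA, not called, and rose by 0.29 on Sp_EMA. The gene ubp2, whose budding yeast counterpart trims ubiquitin chains made by the ligase Rsp5, had 11.37 and 11.35 in H2O2 against 10.82 and 10.80 in control on Sp_TMA. On Sp_EMA ubp2 had 11.49 and 11.46 in H2O2 against 10.84 and 10.84 in control. Replicates of these genes lay far closer to each other than the groups did, and ubp2 rose by 0.55 ± 0.07 (adjusted p = 0.00121) and by 0.64 ± 0.05 (adjusted p = 0.000382).

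The genes of the proteasome-bound deubiquitinases uch2 and ubp6 rose on Sp_TMA by 0.51 and 0.31, with changes of 0.12 and 0.16 on Sp_EMA that were not called. The gene ubp14, whose product takes apart free ubiquitin chains, had 0.17 on Sp_TMA, not called, and rose by 0.34 on Sp_EMA. On leaving out 1 array the Sp_EMA change of ubp14 was 0.27 to 0.42, and its call was not kept under every alternative. The gene ubp8, for the deubiquitinase of the SAGA coactivator, ubp10, ubp3 and uch1 had changes between 0.14 and 0.21 on Sp_TMA and between -0.04 and 0.15 on Sp_EMA. The genes ubp1, ubp9 and ubp12 had -0.06, -0.13 and -0.18 on Sp_TMA and -0.18, -0.09 and -0.00 on Sp_EMA. None of these 7 was called on either platform.

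Of the lower genes, ubp16 (chromosome III, 394814 to 397147, minus strand) stood apart. It had 10.92 and 10.97 in H2O2 against 12.12 and 11.93 in control on Sp_TMA, and 11.00 and 10.92 in H2O2 against 12.04 and 11.88 in control on Sp_EMA. Both H2O2 arrays lay well below both control arrays, and ubp16 fell by 1.08 ± 0.09 (2.11-fold, adjusted p = 0.000210) and by 0.997 ± 0.07 (adjusted p = 0.000330). On Sp_TMA 4.18% of all genes were lower by at least 1. On Sp_EMA 4.84% were, and ubp16 lay just short of that cut. The gene ubp4 had 9.40 and 9.56 in H2O2 against 9.89 and 9.77 in control on Sp_TMA, and 11.26 and 11.31 in H2O2 against 11.90 and 11.70 in control on Sp_EMA. It fell by 0.35 ± 0.09 (adjusted p = 0.0181) and by 0.52 ± 0.08 (adjusted p = 0.00396). The gene ubp7 had 10.28 and 10.37 in H2O2 against 10.62 and 10.55 in control on Sp_TMA, and 10.84 and 10.76 in H2O2 against 11.12 and 11.09 in control on Sp_EMA. It fell by 0.26 ± 0.08 (adjusted p = 0.0303, and 0.0600 with the replicate block) and by 0.30 ± 0.05 (adjusted p = 0.00698), and neither gene's groups overlapped. On leaving out 1 array, the Sp_TMA change was -1.17 to -0.99 for ubp16, -0.43 to -0.27 for ubp4 and -0.30 to -0.22 for ubp7. The Sp_TMA calls of ubp4 and ubp7 were not kept under every alternative.

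**Figure D3:**
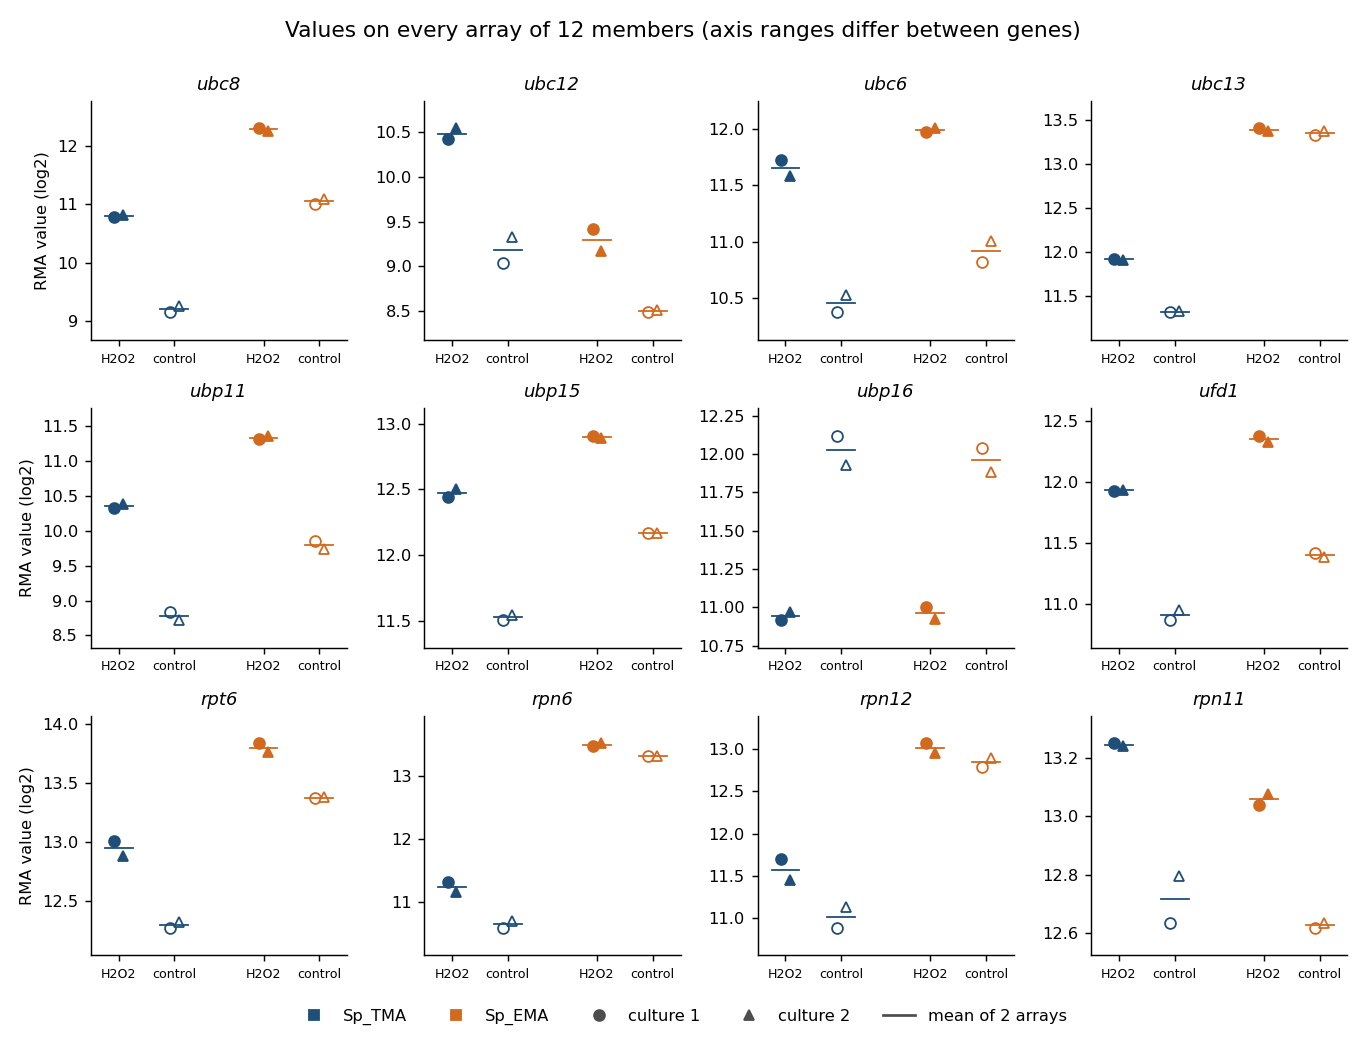
Value of each array (log2) for 12 members, with H2O2 arrays left of control arrays, the culture shown by the marker and the mean by a line. For ubc8, ubp11, ubc6, ubc12 and ufd1 both H2O2 arrays stand above both control arrays on each platform, and for ubp16 they stand below.

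All 3 Cdc48 and Ufd genes were called higher on Sp_TMA and ufd1 and ufd2 on Sp_EMA, with ufd1 about 2-fold higher. Of all genes, 25.2% on Sp_TMA and 22.7% on Sp_EMA were called higher. Only ufd1 kept its call under every alternative at the same threshold, as 16.7% and 15.1% of all genes did. The gene ufd1 (chromosome II, 4282032 to 4283614, plus strand) encodes the adaptor that with Npl4 brings ubiquitinated proteins to Cdc48, and had 11.92 and 11.93 in H2O2 against 10.87 and 10.94 in control on Sp_TMA. On Sp_EMA it had 12.38 and 12.33 in H2O2 against 11.42 and 11.38 in control. The groups stood far apart, and ufd1 rose by 1.02 ± 0.08 (2.03-fold, adjusted p = 0.000124) and by 0.95 ± 0.05 (adjusted p = 0.000139). The gene ufd2, for a chain-elongating ligase that works with Cdc48, had 10.73 and 10.78 in H2O2 against 10.49 and 10.45 in control on Sp_TMA. On Sp_EMA ufd2 had 12.09 and 12.12 in H2O2 against 11.94 and 11.95 in control. It rose by 0.29 ± 0.08 (adjusted p = 0.0181) and by 0.16 ± 0.05 (adjusted p = 0.0384, and 0.0600 with the replicate block). The ATPase gene cdc48 had 13.94 and 13.88 in H2O2 against 13.63 and 13.71 in control on Sp_TMA, and 14.22 and 14.30 in H2O2 against 14.10 and 14.16 in control on Sp_EMA. It rose by 0.24 ± 0.08 (adjusted p = 0.0412) on Sp_TMA, a call lost on leaving out any 1 array or with the replicate block (0.0890), and its change of 0.12 ± 0.06 (adjusted p = 0.118) on Sp_EMA was not called. On leaving out 1 array, the change on Sp_TMA was 0.98 to 1.06 for ufd1, 0.26 to 0.31 for ufd2 and 0.20 to 0.28 for cdc48. On Sp_EMA it was 0.93 to 0.98 for ufd1, 0.14 to 0.18 for ufd2 and 0.08 to 0.16 for cdc48.

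Of the genes kept apart, the transcription factor gene pcr1 had a larger change than any of the 60, and atf1 also rose. The gene pcr1 had 13.93 and 13.89 in H2O2 against 11.90 and 12.09 in control on Sp_TMA, and 13.24 and 13.14 in H2O2 against 10.72 and 10.84 in control on Sp_EMA. It rose by 1.92 ± 0.09 (adjusted p = 2.39e-05) and by 2.41 ± 0.07 (adjusted p = 4.15e-05). The gene atf1 had 13.21 and 13.28 in H2O2 against 11.94 and 12.02 in control on Sp_TMA, and 12.79 and 12.85 in H2O2 against 11.33 and 11.46 in control on Sp_EMA. It rose by 1.26 (adjusted p = 6.69e-05) and by 1.43 (adjusted p = 0.000105), and the Pan2 gene ubp13 had changes of -0.15 and 0.04 that were not called.

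Other genes of the pathway were described from 8 lists of gene names, of which 104 genes were measured, and their counts are to be read against the 25.2% of all genes called higher and 31.3% called lower on Sp_TMA, and 22.7% and 36.2% on Sp_EMA. Of the assembly factors, tethers and shuttles of the proteasome, 4 of 8 were called higher on each platform. The regulatory particle chaperone genes nas6 and nas2 rose by 0.68 and 0.37 on Sp_TMA and 0.50 and 0.48 on Sp_EMA, the core maturation factor gene ump1 by 0.53 and 0.22, and the shuttle gene dsk2 by 0.53 and 0.29, while cut8, which tethers the proteasome at the nuclear envelope, had -0.20 on Sp_TMA, not called, and fell by 0.35 on Sp_EMA. Of 12 Cdc48 adaptors and genes of endoplasmic reticulum degradation, 7 were called higher on each platform and 1 on Sp_TMA and 2 on Sp_EMA lower. They included the Dsc ligase gene dsc5 (1.54 and 1.66), the adaptor genes ubx4 (0.82 and 0.88) and npl4 (0.50 and 0.36), and the membrane channel gene der1 (0.56 and 0.33). All 3 deubiquitinating enzymes outside the name rule rose on both, namely otu1, a Cdc48 partner (1.27 and 0.90), the endosomal sst2 (0.85 and 1.09) and otu2 (0.47 and 0.19).

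Ligase genes were called in both directions, as were genes in general (25.2% higher and 31.3% lower on Sp_TMA, 22.7% and 36.2% on Sp_EMA). Of 21 HECT, RING and U-box ligases 7 were called higher and 5 lower on Sp_TMA, and 7 and 4 on Sp_EMA. The gene san1, for a nuclear quality control ligase in budding yeast, rose by 1.13 and 1.32, and hul5, whose budding yeast product sits on the proteasome, by 1.08 and 1.24, whereas slx8, of a SUMO-targeted ligase, fell by 1.25 on Sp_TMA and 1.27 on Sp_EMA. Of 26 cullin ligase genes 7 were called higher and 8 lower on Sp_TMA, and 8 and 11 on Sp_EMA, with F-box genes at both ends (pof14, 1.91 and 1.36, and pof4, -1.72 and -1.93). None of the 16 genes of the anaphase-promoting complex, which drives exit from mitosis, was called higher on Sp_TMA and 8 were called lower. On Sp_EMA cut9 was called higher and 8 were called lower. Its activator gene slp1 had 10.83 and 10.91 in H2O2 against 12.85 and 12.82 in control on Sp_TMA and fell by 1.96 there and by 1.80 on Sp_EMA.

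Of 8 genes of ubiquitin and ubiquitin-like proteins, 2 were called higher and 2 lower on Sp_TMA, and none higher and 2 lower on Sp_EMA. The ribosomal fusion gene ubi2 fell by 0.46 on Sp_TMA and 0.17 on Sp_EMA, ubi5 by 0.32 on Sp_TMA alone, and ubi1 and ubi3 were called on neither. Of 10 other SUMO, Nedd8 and COP9 signalosome genes, 4 were called higher on each platform and 3 on Sp_TMA and 5 on Sp_EMA were called lower. The Nedd8 protease genes rose, nep2 by 1.52 on Sp_TMA and 1.99 on Sp_EMA and nep1 by 1.23 and 1.15, and csn71, of the signalosome that strips Nedd8 from cullins, fell by 1.60 on Sp_TMA and 1.80 on Sp_EMA. The SUMO protease genes ulp1 and ulp2 were also called lower on both, with changes of -0.80 and -0.62 on Sp_TMA and -0.75 and -0.66 on Sp_EMA.

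The platforms were compared directly, since both read the same RNA. They differ in the probes of each gene, in the amount of RNA used and in the labelling. The target on Sp_TMA kept the strand of the RNA and that on Sp_EMA did not. The parts of these in a difference between platforms cannot be told apart. The difference in change (Sp_TMA minus Sp_EMA) was called for 1 of 60 members, where 1.4% of all genes differed upward and 0.536% downward. This fit takes the 8 arrays of 4 RNA samples as independent, and with the replicate block 10 members were called, and 492 genes upward and 173 downward over all. That gene was ubc13 (chromosome I, 5287180 to 5288094, minus strand), whose product builds the ubiquitin chains used in DNA damage tolerance. It had 11.93 and 11.91 in H2O2 against 11.32 and 11.33 in control on Sp_TMA, and 13.40 and 13.37 in H2O2 against 13.32 and 13.37 in control on Sp_EMA. The groups were apart on Sp_TMA and overlapped on Sp_EMA: ubc13 rose by 0.59 ± 0.07 (adjusted p = 0.000884) on Sp_TMA and had a change of 0.04 ± 0.05 (adjusted p = 0.528) on Sp_EMA. The difference was 0.55 ± 0.08 (adjusted p = 0.0250). Its adjusted p was 0.0764 without Sp_TMA control 1, 0.0658 and 0.0840 without Sp_EMA control 1 and 2, and 0.111 and 0.135 without Sp_EMA H2O2 1 and 2. Over 111 bases ubc13 overlaps the opposite-strand gene csm1, whose changes of 0.20 and 0.07 were not called. The Nedd8 gene ned8 from the pathway lists also differed, by 0.83 ± 0.10 (adjusted p = 0.0128), with 7.98 and 7.96 in H2O2 against 7.03 and 7.19 in control on Sp_TMA and 11.37 and 11.40 in H2O2 against 11.35 and 11.37 in control on Sp_EMA. For the 23 proteasome subunits the median difference was 0.23, beside 0.05 over all genes, and none was called. By whole annotated spans, which reach beyond the coding sequence that holds the probes, 24 of the 60 members overlap a measured opposite-strand gene. The part of such genes in the Sp_EMA values was not tested.

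**Figure D4:**
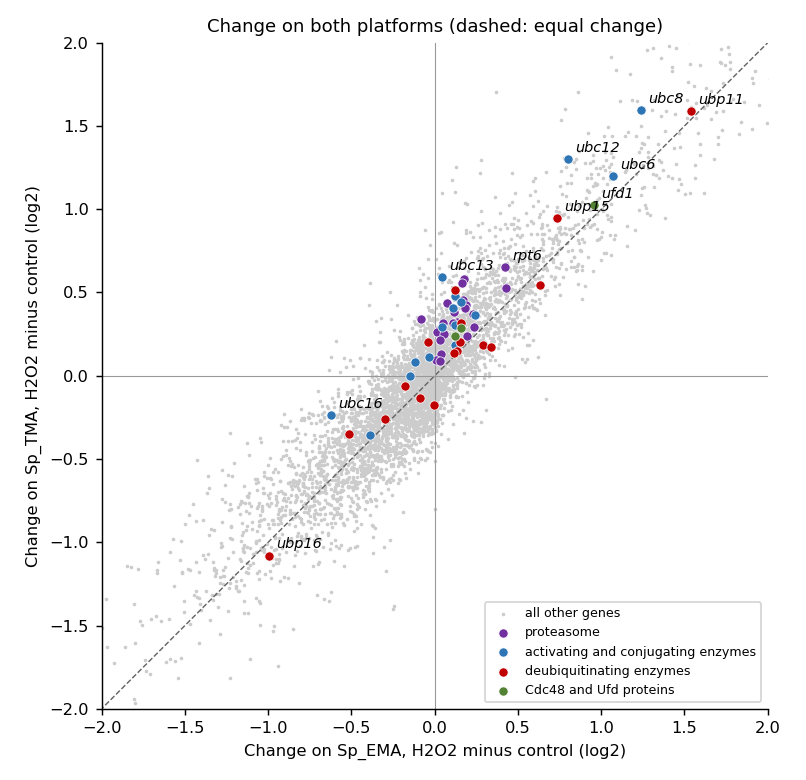
Change (H2O2 minus control, log2) on Sp_TMA against that on Sp_EMA for the members, coloured by group, over other genes in grey, with a dashed line of equal change and both axes cut at -2 and 2. ubc8, ubp11 and ubp16 lie at the ends on both axes, and ubc13 lies off the line with 0.59 on Sp_TMA and 0.04 on Sp_EMA.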

How the data were processed

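RNA of 2 cultures, each sampled before (control) and after H2O2, was hybridised by the authors to 4 Sp_TMA and 4 Sp_EMA arrays. The deposited values are log2 signals per gene, which the authors summarised and normalised by RMA within each platform over probes with a single genome match inside annotated coding sequences. The RMA version is not given in the sources used here. Because RMA equalises the distribution of all probes and not of gene values, the distributions of gene values can still differ between arrays. The target of Sp_TMA kept the RNA strand, and that of Sp_EMA, made double-stranded, did not.

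Both tables held the same 4854 genes, of which 4842 were matched to RefSeq annotation of ASM294v3 by name for products, positions and promoters. Each platform was fitted with limma 3.58.1 (R 4.3.3; lmFit, eBayes, two-sided) on 2 H2O2 against 2 control arrays with no block, and the difference between platforms as an interaction over all 8 arrays, with Benjamini-Hochberg adjustment over all genes and a threshold of 0.05. Permuting 2 and 2 arrays exactly would give p = 0.333 at the least for any gene, and limma borrows the spread of all genes instead. Arrays of the same number came from the same culture by the study's methods. The correlation across genes of the H2O2 and control deviations within cultures was -0.06 on Sp_TMA and 0.25 on Sp_EMA. The scripts were tested on simulated data.

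The members and lists were chosen with earlier results of these data known. Arrays are given for the 3 highest and 3 lowest members of each group on Sp_TMA, members with a change of at least 1 and those differing between platforms; rpn11 and a few pathway genes were added after their values were seen. Of 130 pathway names, 12 were not found, and 8 genes matched through a synonym were left out for another product after their values were seen. A few genes are counted but not reported here by name. The alternatives were the replicate block, an intensity trend, median centring, quantile normalisation of gene values, omission of the dimmest 25% of genes or of each array in turn, and a threshold of 0.01.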

Additional observations from a re-analysis of the deposited data

Results flagged for a closer look

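The change of the E2 gene ubc13 differed between platforms, by 0.551 (Sp_TMA minus Sp_EMA, adjusted p = 0.0250 by limma over all 8 arrays), and it was picked out because the difference itself passed the test. The change of the Nedd8 gene ned8 differed by 0.83 (adjusted p = 0.0128) for the same reason. The adjusted p of ned8 was 0.0511 without Sp_TMA control 1, 0.0541 without Sp_EMA control 2, 0.0801 without Sp_EMA H2O2 1 and 0.0752 without Sp_EMA H2O2 2. Groups of 2 arrays are too small to be searched for single outlying arrays.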

How the results depend on the processing

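Of 1252 results recomputed under an alternative, 1058 kept their direction and side of the threshold or stayed within 1.5 times, 142 were weaker, 30 stronger and 22 reversed; the causes were not tested. Proteasome subunits called higher on Sp_TMA numbered 17, with 9 under quantile normalisation of gene values, 8 at a threshold of 0.01 and 4 to 14 leaving out 1 array. On Sp_EMA the subunits called higher numbered 8, with 13 under the intensity trend, 4 under quantile normalisation and 2 at 0.01. Of all genes 22.7% were called higher there, 23.9% under the trend and 24.6% under quantile normalisation. Shares of all genes at 0.01 are not given here. E1 and E2 genes called higher on Sp_TMA numbered 6 at 0.01. E1 and E2 genes called lower there numbered 1 with the replicate block, 1 under quantile normalisation and 0 at 0.01. Of all 4854 genes 1470 were called lower with the block and 1666 under quantile normalisation. On Sp_EMA 3 E1 and E2 genes were called higher without the dimmest 25% of genes, where 24.9% of the genes fitted were. Deubiquitinating enzymes called lower on Sp_TMA numbered 1 at 0.01 and 1 to 3 leaving out 1 array, and those called higher on Sp_EMA 3 to 5. Cdc48 and Ufd genes called higher on Sp_TMA numbered 1 at 0.01. On Sp_EMA they numbered 1 with the replicate block, 1 under quantile normalisation and 1 at 0.01. Of all genes 22.9% were called higher there with the block and 24.6% under quantile normalisation. Members differing between platforms numbered 1, with 10 with the replicate block and 2 under the trend. Over all genes the trend gave 89 differences upward and 34 downward. Over all genes the block gave 1210 higher and 1470 lower on Sp_TMA, and 492 and 173 differences between platforms.

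Changes that reversed were near 0. Under quantile normalisation they were uba2 (0.0391), rpn1 (-0.0503), pre8 (-0.0619), rpt1 (-0.0296) and ubp3 (-0.0248) on Sp_TMA, and rpn1 (-0.0184), rpn10 (-0.0130), rpn2 (-0.00745) and ubp9 (0.0315) on Sp_EMA. With median centring ubp12 on Sp_EMA was 0.00605. Leaving out 1 array, the lowest and highest changes on Sp_TMA were -0.0382 and 0.0356 for uba2, -0.0264 and 0.193 for hus5, and -0.160 and 0.0338 for ubp1. On Sp_EMA they were -0.0079 and 0.0281 for rpn1, -0.00775 and 0.0700 for pre8, -0.0398 and 0.104 for pup3, -0.0357 and 0.0672 for rpn10, -0.0839 and 0.0746 for ubp12, and -0.187 and 0.0055 for ubp9. Using all genes of each platform's own table gave the same 4854 genes and so no further value.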

Other observations

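Outside the members and lists, 62 genes had a RefSeq product naming ubiquitin or the proteasome, and 9 of them were past the test with a change of at least 1 (log2) on either platform. Of all 4854 genes, 510 changed by at least 1 in either direction on Sp_TMA and 495 on Sp_EMA. The count over all genes on either platform is not given here. The 9 genes were picked after their values were seen, and carry no further test. The ubiquitin and metalloprotease fusion gene wss2 (SPCC1442.07c) had 12.42 and 12.32 in H2O2 against 10.00 and 10.06 in control on Sp_TMA, a change of 2.34, and a change of 2.32 on Sp_EMA. The E3 ligase gene SPBC14F5.10c had changes of 1.97 and 1.76, and ear1, whose budding yeast product guides membrane proteins to a HECT ligase, 1.59 and 1.73. The gene fub1, with a PI31 domain known from a proteasome regulator, had 9.62 and 9.54 in H2O2 against 8.10 and 8.11 in control on Sp_TMA, with changes of 1.47 and 1.38. The ligase genes pqr1 and SPAC2F3.16 had 1.08 and 1.01 on Sp_TMA and 0.79 and 1.27 on Sp_EMA. The lower ones included blt1 (-1.35 and -1.15) and nse1, of the Smc5-Smc6 complex (-0.76 and -1.26).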
